A study of Mus musculus with 6 samples.

Results

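DKK2, PRICKLE2 and KIF26B, which take part in Wnt signalling and planar cell polarity, were followed by name in a table of read counts from mouse pancreatic islets. They are 3 of the 13702 genes in that table. They had been picked because of how their counts differed between the genotypes, so that difference is given as a description and was not tested. Islets came from 12-week-old β-PCKO mice (KO), whose β-cells lack pyruvate carboxylase, an enzyme of mitochondria that carboxylates pyruvate, and from wild-type littermates (WT). There were 3 libraries of each genotype. The labels name no further allele, no Cre driver and no treatment, and do not say whether each library came from its own animal, so the spread between libraries may be technical. RNA was total RNA depleted of ribosomal RNA, from whole islets. A difference in bulk RNA of this kind does not tell fewer cells of a type from less RNA per cell.

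Wnt proteins are secreted signals that bind Frizzled receptors. In the canonical branch, Frizzled works with the co-receptors LRP5 and LRP6 and stabilises β-catenin, which then activates target genes together with TCF and LEF transcription factors. In the non-canonical branches, Frizzled and the ROR receptors act on the cytoskeleton, on calcium signalling and on the orientation of cells within a sheet, the property called planar polarity. DKK2 is a secreted protein of the Dickkopf family that binds LRP5 and LRP6 and antagonises canonical signalling together with KREMEN proteins. PRICKLE2 is a cytoplasmic LIM-domain protein of the core planar polarity group. KIF26B is an unconventional kinesin, and in mouse cells its protein is degraded in response to WNT5A acting through ROR receptors.

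The 250 bases that precede the annotated start of transcription of the mouse gene are shown for each of these genes. Any relation of these bases to the direction of a gene in KO was not tested. The sequences are RefSeq's on build GRCm38.p6, matched by symbol for all 3 genes, and each runs 5′ to 3′ on the strand of its gene. Capitals mark matches to CTTTGAA or CTTTGAT, which are words bound by TCF and LEF factors and share their opening letters, and to TATAAA, the TATA box word, each searched on both strands.
Dkk2, chr3:132085042-132085291, plus strand: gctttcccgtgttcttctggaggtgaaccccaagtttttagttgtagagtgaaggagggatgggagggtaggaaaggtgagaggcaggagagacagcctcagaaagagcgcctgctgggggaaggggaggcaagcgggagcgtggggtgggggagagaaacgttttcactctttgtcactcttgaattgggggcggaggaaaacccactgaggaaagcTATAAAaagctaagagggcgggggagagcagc
Kif26b, chr1:178528875-178529124, plus strand: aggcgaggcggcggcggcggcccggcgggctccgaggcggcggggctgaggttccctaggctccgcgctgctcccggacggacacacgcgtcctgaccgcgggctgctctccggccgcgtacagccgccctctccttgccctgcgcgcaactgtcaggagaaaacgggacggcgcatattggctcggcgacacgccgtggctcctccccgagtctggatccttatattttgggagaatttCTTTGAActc
Prickle2, chr6:92706185-92706434, minus strand: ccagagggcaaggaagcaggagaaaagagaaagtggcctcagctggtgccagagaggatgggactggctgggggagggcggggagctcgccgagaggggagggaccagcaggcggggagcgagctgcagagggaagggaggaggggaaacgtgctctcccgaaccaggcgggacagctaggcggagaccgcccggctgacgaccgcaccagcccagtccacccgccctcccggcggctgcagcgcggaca
The Dkk2 window held TATAAA beginning 32 bases before the start, and the Kif26b window held CTTTGAA beginning 10 bases before it. The Prickle2 window held none of these words. Prickle2 has 4 such windows in the table, of which the one furthest upstream is printed. A second one held CTTTGAT beginning 164 bases before its start. Among 32817 windows of this length in the mouse table, 12.4% held TATAAA and 7.48% held CTTTGAA or CTTTGAT. These shares are per window, and a gene with 4 windows has more places for a match. A match of letters is a description of the window and not evidence that a factor binds there. GC content was 55.6% in the Dkk2 window, 68.4% in that of Kif26b and 70% in that of Prickle2, where the median over all windows was 52.4%.

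Depth and library make-up bear on each value below. Total counts ran from 224898 to 225561 in the KO libraries and were 35906, 377876 and 135441 in WT replicates 1, 2 and 3. Levels are given in CPM, counts scaled to a common library size, with sizes adjusted by the TMM method so that a single count is worth 4.17 to 4.21 CPM in the KO libraries and 25.7, 4.0 and 6.31 CPM in WT replicates 1, 2 and 3. The KO libraries were far more alike than the WT libraries. A chi-square over degrees of freedom, for which sampling noise alone gives 1, came to 1.96 to 2.02 between KO libraries and to 16.5 to 35.1 between WT libraries (genes whose 2 counts sum to 20 or more). Of 12 squamous epithelium markers, all were listed and took 0.0289% to 0.0368% of KO counts, against 0.0613%, 16.4% and 0.0960% in WT replicates 1, 2 and 3. Of 12 mesenchymal and fibrous markers, 11 were listed. They took 0.349% to 0.382% in the KO libraries and 0.348%, 0.0831% and 0.829% in WT replicates 1, 2 and 3. Of 12 β-cell markers, 4 were listed (MAFA, NEUROD1, PCSK1 and NKX6-1). They took 0.148% to 0.191% of KO counts, where PCSK1 was at 0, and 0.0696%, 0.00582% and 0.0273% in WT replicates 1, 2 and 3. Of 10 neuron and Schwann cell markers, 6 were listed, at 0.0427% to 0.0443% in the KO libraries and 0.0418%, 0.0143% and 0.0221% in WT replicates 1, 2 and 3. GH1, the growth hormone gene and the one listed marker of 6 for the pituitary, had 7285, 7123 and 7132 counts in KO replicates 1, 2 and 3 and 7, 6 and 5 counts in WT replicates 1, 2 and 3. These shares differed between the genotypes, between the WT libraries or in both ways, and their part in the differences below was not tested. The hormone genes INS, GCG and SST are not listed under these names, so the islet label was not checked by them. The targeted gene, PC, had 0 counts in each KO library and 0, 4 and 0 counts in WT replicates 1, 2 and 3. That is too few to check the genotype labels. The identifiers are human although the labels give mouse and mm10, and no source used here states how a read came to be counted for one of them.

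DKK2 (ENSG00000155011) was the most heavily counted of these genes and was higher in KO in every library. It had 342, 368 and 398 counts in KO replicates 1, 2 and 3, and 1, 4 and 10 counts in WT replicates 1, 2 and 3. On the CPM scale its level was 1546 ± 114 in KO and 35.0 ± 24.9 in WT (SD, n = 3 each). The lowest KO library stood at 1439 CPM and the highest WT library, replicate 3, at 63.1 CPM, so the groups did not overlap. The summed, size-scaled counts gave a KO to WT ratio of 46.1, with an exact 95% interval of 27.8 to 82.7 that covers counting error only. On the log2(CPM + 2) scale the KO mean exceeded the WT mean by 5.60.

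The WT level of DKK2 was uneven between libraries. In CPM on unscaled library totals it was 27.9 in WT replicate 1 (exact Clopper-Pearson interval 0.705 to 155), 10.6 in WT replicate 2 (2.88 to 27.1) and 73.8 in WT replicate 3 (35.4 to 136). The intervals of WT replicates 2 and 3 did not overlap, and WT replicate 3 supplied 66.7% of the WT counts of DKK2 while holding 24.7% of all WT counts. That library also had the largest share of mesenchymal and fibrous markers, and the part of those cells in its DKK2 counts was not tested. These markers did not move together. KERA had 0 counts in each KO library and 0, 0 and 256 in WT replicates 1, 2 and 3. OGN had 403, 358 and 354 counts in KO replicates 1, 2 and 3 and 1, 2 and 129 in WT replicates 1, 2 and 3. Set against each WT library in turn, the KO libraries together were 60.1-fold higher than WT replicate 1 (interval 10.8 to 2375), 96.7-fold higher than WT replicate 2 (37.6 to 355) and 24.5-fold higher than WT replicate 3 (13.3 to 51.2). At the KO level, WT replicate 1 would have held 60.1 counts, where 1 was seen. Among the KO libraries, the chi-square over degrees of freedom of its counts was 2.21, close to that of whole KO libraries.

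KIF26B (ENSG00000162849) was also higher in KO. It had 62, 56 and 63 counts in KO replicates 1, 2 and 3, and 0, 2 and 0 counts in WT replicates 1, 2 and 3. Its level was 253 ± 16.6 CPM in KO and 2.67 ± 4.62 CPM in WT (SD, n = 3 each). Both WT counts came from WT replicate 2, the deepest library, and no WT library approached the lowest KO level of 234 CPM. The ratio of summed, size-scaled counts was 56.5 (exact 95% interval 15.4 to 470), and the difference on the log2(CPM + 2) scale was 6.22. Depth sets what can be said against each WT library. A count of 0, taken as 3 counts, puts KO 3.27-fold higher than WT replicate 1 and 13.3-fold higher than WT replicate 3. The exact lower limits for these were 2.63 and 10.7. Against WT replicate 2 the ratio was 31.6 (8.62 to 263). At the KO level WT replicate 1 would have held 9.82 counts and WT replicate 3 would have held 40.0, so the 0 in WT replicate 1 carries the least information. In the KO libraries the counts varied no more than sampling noise gives, with a chi-square over degrees of freedom of 0.236.

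PRICKLE2 (ENSG00000163637) went the other way and was nearly undetected in KO. It had 0, 1 and 0 counts in KO replicates 1, 2 and 3, and 2, 20 and 9 counts in WT replicates 1, 2 and 3. Its level was 1.39 ± 2.41 CPM in KO and 62.8 ± 15.2 CPM in WT (SD, n = 3 each), and the groups did not overlap. The ratio of WT to KO from summed, size-scaled counts was 49.7 (exact 95% interval 8.28 to 2024), and KO was lower by a difference of −4.45 on the log2(CPM + 2) scale. At the WT level each KO library would have held 16.5 to 16.6 counts. A share of 0 in KO replicates 1 and 3, taken as 3 counts, is 13.3 CPM on unscaled library totals, and the exact upper limit was 16.4 CPM in each. Both are below the measured 52.9 to 66.4 CPM of the WT libraries, as is the upper limit of 24.8 CPM in KO replicate 2. The exact lower limits of WT replicates 2 and 3 were 32.3 and 30.4 CPM, above these KO limits. That of WT replicate 1, which had 2 counts, was 6.75 CPM, so the KO limits are not separated from that library.

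The WT level of PRICKLE2 was 51.5, 80.0 and 56.8 CPM in WT replicates 1, 2 and 3 on TMM-scaled sizes, and 55.7, 52.9 and 66.4 CPM on unscaled library totals. The intervals on unscaled totals overlapped (6.75 to 201, 32.3 to 81.7 and 30.4 to 126), and that of WT replicate 1, which rests on 2 counts, was wide. WT replicate 2 supplied 64.5% of the WT counts of PRICKLE2 and 68.8% of all WT counts. With WT replicates 2 and 3 both left out, a choice made after the data were seen, the difference was −4.21 on the log2(CPM + 2) scale and rests on those 2 counts of WT replicate 1. In the same setting DKK2 and KIF26B stood at 5.88 and 7.10, with 1 and 0 counts in that library.

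**Figure D1:**
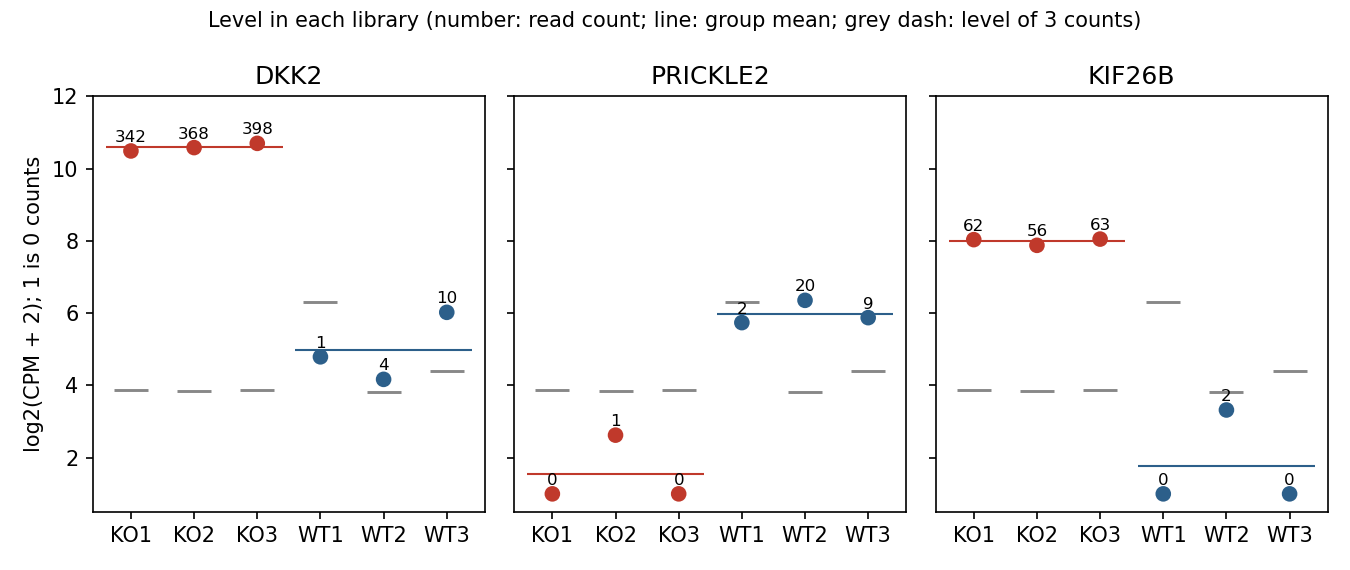
Level of DKK2, PRICKLE2 and KIF26B in each library as log2(CPM + 2), with KO libraries in red left of WT libraries in blue, the read count beside each point, the group mean as a line and the level of 3 counts as a grey dash. DKK2 and KIF26B stand at 342 to 398 and 56 to 63 counts in the KO libraries and at 10 counts or fewer in the WT libraries, while PRICKLE2 has at most 1 count in a KO library and up to 20 in a WT library.

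In all 3 genes the groups did not overlap, which was also the case for 34.9% of the 2560 genes deep enough to be tested across the table (22.6% higher in KO, 12.3% lower). The genes were picked on this contrast, so nothing is read from their count. An adjusted p under 0.05 in edgeR was reached by 8.05% of those 2560 genes, and the calls of the genes described here are not given for the same reason. For orientation, the fitted log2 fold change in edgeR was exceeded by 28 of the 2560 genes for DKK2 and by 25 for KIF26B, and 9 genes had a lower one than PRICKLE2. The 3 genes passed the low-count filter, PRICKLE2 through its WT libraries and DKK2 and KIF26B through their KO libraries. Across the 6 libraries on the log2(CPM + 2) scale, DKK2 and KIF26B had a Pearson r of 0.917, and PRICKLE2 had r of −0.960 with DKK2 and −0.924 with KIF26B. These 6 points share the division into genotypes on which the genes were chosen, so the values describe that division.

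**Figure D2:**
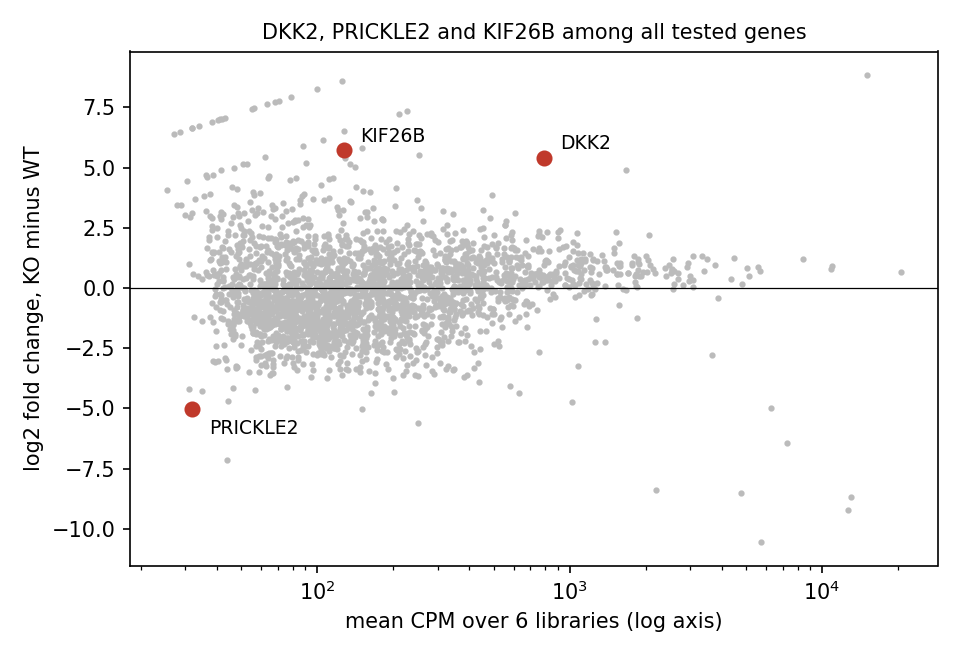
Fitted log2 fold change (KO minus WT) against mean CPM over the 6 libraries on a log axis, with a grey point for each of 2560 tested genes and DKK2, PRICKLE2 and KIF26B in red. DKK2 and KIF26B lie near the upper edge of the cloud, with 28 and 25 genes above them, and PRICKLE2 lies near the lower edge at a low mean level, with 9 genes below it.

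No scaling or left-out library that was tried turned the direction of these differences. With DESeq2 size factors or library totals the log2(CPM + 2) difference was 5.49 or 5.75 for DKK2, 6.14 or 6.45 for KIF26B and −4.52 or −4.35 for PRICKLE2. The pseudocount moved the values of the genes that had counts of 0. With 10 CPM in its place, KIF26B stood at 4.43 and PRICKLE2 at −2.68, and with 0.5 CPM they stood at 7.62 and −5.88. DKK2, counted in every library, stood at 5.25 and 5.68.

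**Figure D3:**
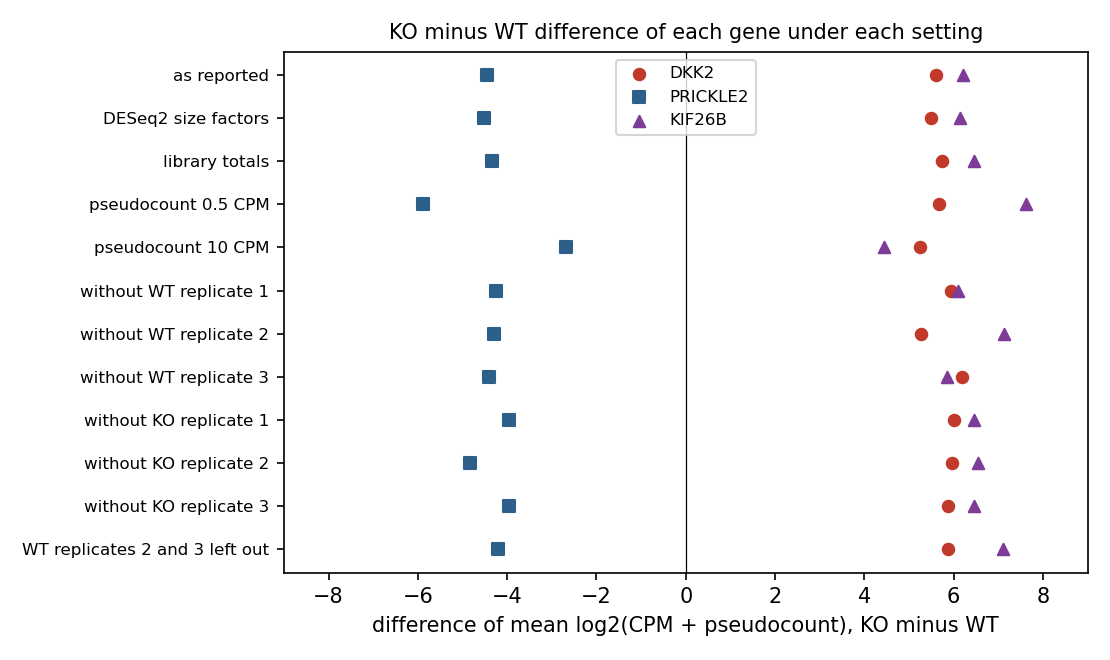
Difference of mean log2(CPM + pseudocount), KO minus WT, for DKK2, PRICKLE2 and KIF26B (x axis) under each scaling, pseudocount and left-out library (y axis). DKK2 and KIF26B stay at or above 4.43 and PRICKLE2 stays at or below −2.68 in every setting drawn.

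Close relatives of these genes were counted too seldom for a test. In the Dickkopf family, DKK1 had 0, 2 and 1 counts in KO replicates 1, 2 and 3 and 1, 0 and 4 counts in WT replicates 1, 2 and 3. For DKK3 the KO libraries held 4, 1 and 1 counts and the WT libraries 0, 7 and 0. DKK4 and DKKL1 are not listed under these names. Of the Prickle paralogs, PRICKLE1 had 3 counts over the KO libraries and 8 over the WT libraries, PRICKLE3 had 0 and 3, and PRICKLE4 had 0 and 2. The nearest relative of KIF26B, KIF26A, is not listed.

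The deposited annotation of the table ties these genes together only loosely. DKK2 and PRICKLE2 both carry the table's term for the Wnt signaling pathway, which 111 genes carry, and no term was shared by all 3. KIF26B carries terms for establishment of cell polarity, axon guidance and microtubule motor activity instead.

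The rest of the pathway was read from gene lists by role, with edgeR's quasi-likelihood test fitted on all 2560 genes and Benjamini-Hochberg adjustment. Of 168 genes in the Wnt and polarity lists, the table holds 142, and 50 of them passed the low-count filter. Of these, 1 rose and none (0) fell, where 5.04% of all tested genes rose and 3.01% fell. Their median log2 fold change was 0.43, against −0.14 over all genes tested. At an unadjusted p under 0.05 there were 14 of the 50 and 729 of the 2560. DESeq2 called 4 of the 50 higher and 6 lower, where it called 8.24% and 9.22% of all tested genes. With limma-voom 4 were higher and 1 lower, where the shares over all genes were 8.52% and 3.67%. Without WT replicate 1, the shallowest library, 23 of 52 were higher and 5 lower, where 24.9% and 21.7% of 3279 tested genes were. Without WT replicate 2 or any 1 KO library no (0) gene of the lists was called in edgeR, where at most 0.45% of all tested genes were higher and at most 0.0719% lower, and 8 to 12 list genes had an unadjusted p under 0.05.

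The one gene called was CAMK2B, which encodes a subunit of the calcium and calmodulin-dependent kinase CaMKII, a relay of the Wnt calcium branch. It had 48, 66 and 38 counts in KO replicates 1, 2 and 3 and 2, 1 and 0 counts in WT replicates 1, 2 and 3, and the groups did not overlap. Its level was 212 ± 58.8 CPM in KO and 18.5 ± 28.6 CPM in WT (SD, n = 3 each). The ratio of summed, size-scaled counts was 31.6 (exact 95% interval 10.6 to 155), and the adjusted p in edgeR was 0.0449. Its fitted log2 fold change was 4.57 ± 1.13 (SE), and it was 6.57 without WT replicate 1, 3.95 without WT replicate 3 and 2.10 with WT replicates 2 and 3 left out. The call was lost without WT replicate 2 (adjusted p 0.0919), WT replicate 3 (0.0650) or KO replicate 1, 2 or 3 (0.140, 0.139 and 0.0960), and over the 15 alternatives tried the adjusted p ran from 0.000521 to 0.550.

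The ligands themselves were out of reach. Of 19 Wnt genes 10 were listed and none (0) was tested. WNT5A, the ligand that controls KIF26B protein in mouse cells, had 3, 1 and 4 counts in KO replicates 1, 2 and 3 and 0, 42 and 1 counts in WT replicates 1, 2 and 3. It was named after its values had been seen. Nearly all of its WT counts came from WT replicate 2, the library with 68.8% of all WT counts and 16.4% squamous markers. The part of those cells was not tested. Of the secreted modulators and the genes of Wnt release, 16 of 23 were listed and 1 was tested. This was WLS, the carrier that brings Wnt proteins to the cell surface, at 153 ± 14.0 CPM in KO and 197 ± 125 CPM in WT (SD, n = 3 each; adjusted p 0.792 in edgeR).

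Among receptors, 22 of 24 genes were listed and 5 tested, and none (0) passed the threshold, with 2 at an unadjusted p under 0.05. LRP6, the co-receptor to which DKK2 binds, had 251, 246 and 203 counts in KO replicates 1, 2 and 3 and 12, 57 and 82 counts in WT replicates 1, 2 and 3. Its level was 977 ± 112 CPM in KO and 351 ± 149 CPM in WT (SD, n = 3 each), with a fitted log2 fold change of 1.47 ± 0.49 (SE; edgeR adjusted p 0.0922). The groups did not overlap, although the call was not made. It was made in edgeR without WT replicate 1 (adjusted p 0.0115), where 24.9% of all tested genes were called higher and 21.7% lower. With WT replicates 2 and 3 left out, which leaves 1 WT library, the log2 fold change of LRP6 was 1.74. FZD3, a Frizzled receptor of the planar polarity group, had a log2 fold change of −2.47 ± 0.83 (SE; adjusted p 0.0948), and passed with DESeq2 (0.0195). With WT replicates 2 and 3 left out its log2 fold change was −3.26. FZD1 and RYK, further Wnt receptors, had adjusted p of 0.325 and 0.348. LRP5, the second co-receptor, had 1 count over the KO libraries and 8 over the WT libraries. KREMEN1, the partner of Dickkopf proteins, had 1 count over the KO libraries and 0, 24 and 2 counts in WT replicates 1, 2 and 3. The co-receptor ROR1 had 8 counts over the KO libraries and 11 over the WT libraries, and ROR2 had 0 and 1.

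The relay that controls β-catenin had 15 tested genes of 35 listed, out of 39, and none (0) passed, with 5 at an unadjusted p under 0.05. Their median log2 fold change was 0.10. DVL1, a Dishevelled scaffold used by the canonical and the planar polarity branch, had 35, 14 and 16 counts in KO replicates 1, 2 and 3 and 0, 4 and 0 counts in WT replicates 1, 2 and 3 (log2 fold change 3.38 ± 0.95 SE, adjusted p 0.0591 in edgeR). TLE3, a co-repressor that binds TCF factors, had KO counts of 11, 5 and 1 and WT counts of 18, 40 and 25 (−3.34 ± 0.90 SE, adjusted p 0.0521). TCF7L2, a TCF factor, had KO counts of 94, 104 and 96 and WT counts of 0, 14 and 24 (2.38 ± 0.79 SE, adjusted p 0.0895). In each of these 3 genes the groups did not overlap, which was the case for 34.9% of all tested genes. In this list 4 of the 15 tested genes were higher in KO without overlap and 1 was lower. The adjusted p lay above the threshold in the fit as described but not in every alternative. TCF7L2 passed it in 8 of 15, and DVL1 and TLE3 in 6 of 15 each. Those 15 include fits with a single library in an arm. Over the edgeR fits without 1 library, the adjusted p of TCF7L2 ran from 0.00856 to 0.182. For DVL1 it ran from 0.0232 to 0.196 and for TLE3 from 0.0468 to 0.233. Without WT replicate 1 all 3 passed, where 24.9% of all tested genes were called higher and 21.7% lower. The fold of DVL1 was 7.08 on the log2 scale without WT replicate 2, which holds its only WT counts. That of TLE3 was −2.26 without WT replicate 1, and that of TCF7L2 was 3.42 without WT replicate 3. The other Dishevelled genes were untested, DVL2 with 4 counts over the KO libraries and 9 over the WT libraries and DVL3 with 8 and 16. CREBBP, a co-activator, had an adjusted p of 0.0881, and 0.0046 without WT replicate 1. The gene of β-catenin itself, CTNNB1, stood at 927 ± 37.3 CPM in KO and 639 ± 122 CPM in WT (SD, n = 3 each; adjusted p 0.421, and 0.0249 without WT replicate 1). CSNK1A1, a kinase that primes β-catenin for destruction, had the highest mean CPM of the list and an adjusted p of 0.925. Its direction depended on the WT libraries: leaving out WT replicate 1 gave 0.94 on the log2 scale (edgeR adjusted p 0.0471). Leaving out WT replicates 2 and 3, which leaves 1 WT library, gave −0.77.

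Genes that canonical signalling is known to activate in other tissues gave 4 tested of 14 listed, out of 17, and none (0) passed, with 2 at an unadjusted p under 0.05. CD44, a cell surface receptor for hyaluronan, had 27, 33 and 40 counts in KO replicates 1, 2 and 3 and 4, 318 and 82 counts in WT replicates 1, 2 and 3 (adjusted p 0.1000 in edgeR). It was called lower in KO with DESeq2 (0.0349) and without WT replicate 1 (0.00961), and its log2 fold change of −2.21 became −1.16 without WT replicate 2. JUN, CCND1 and CCND2, which encode a transcription factor and 2 cyclins, had adjusted p of 0.146, 0.224 and 0.868. The log2 fold changes in this list ran from −2.21 to 1.31.

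The planar polarity list, to which PRICKLE2 belongs by function, had 28 of 29 genes listed and 7 tested. None (0) of these passed, with 2 at an unadjusted p under 0.05, and their median log2 fold change was −1.07. They include DVL1 and FZD3, described above, which point in opposite directions. SMURF2, a ubiquitin ligase that acts on Prickle proteins in the mouse, stood at 69.8 ± 16.2 CPM in KO and 146 ± 49.4 CPM in WT (SD, n = 3 each; adjusted p 0.263 in edgeR). SEC24B, which exports the polarity protein VANGL2 from the endoplasmic reticulum, and FAT1, a giant cadherin, had adjusted p of 0.313 and 0.524. The transmembrane partners of Prickle proteins were nearly uncounted. VANGL1 had 5 counts over the KO libraries and 9 over the WT libraries, and VANGL2 had 0 and 4, too few to show a difference at this depth.

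Non-canonical effectors other than CAMK2B comprised 20 tested genes, none (0) of which passed. Over the whole list 32 of 34 were listed, 21 were tested and 5 had an unadjusted p under 0.05, with a median log2 fold change of 0.72. PRKCB, a protein kinase C gene of the calcium branch, had 67, 71 and 72 counts in KO replicates 1, 2 and 3 and 2, 3 and 11 counts in WT replicates 1, 2 and 3 (log2 fold change 2.80 ± 0.75 SE, adjusted p 0.0506 in edgeR). It passed in 7 of 15 alternatives, DESeq2 (0.00851), limma-voom (0.0321) and the fits without WT replicate 1 (0.00994) or 3 (0.0435) among them, and its log2 fold change was 3.83 without WT replicate 3. ROCK2, a kinase downstream of the GTPase RhoA, and RAC1, a GTPase of the cytoskeleton, had log2 fold changes of −1.94 ± 0.57 and −2.77 ± 0.84 (SE), with adjusted p of 0.0650 and 0.0708. ROCK2 had 20, 25 and 18 counts in KO replicates 1, 2 and 3 and 14, 53 and 71 counts in WT replicates 1, 2 and 3. RAC1 had KO counts of 5, 9 and 5 and WT counts of 2, 93 and 15. Most of its WT counts came from WT replicate 2, which holds 68.8% of all WT counts. Without that library the log2 fold change of RAC1 was −1.48. DESeq2 called ROCK2 (0.0107) and RAC1 (0.0126) lower in KO, as did the fit without WT replicate 1 (0.0367 and 0.0212). PPP3CB, a calcineurin subunit with the highest mean CPM of the list, had an adjusted p of 0.545, and 0.00669 without WT replicate 1. The table's own term for the Wnt signaling pathway gave a like count. Of its 109 genes other than DKK2 and PRICKLE2, 46 were tested, 1 rose (CAMK2B again) and none (0) fell, with 15 at an unadjusted p under 0.05.

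**Figure D4:**
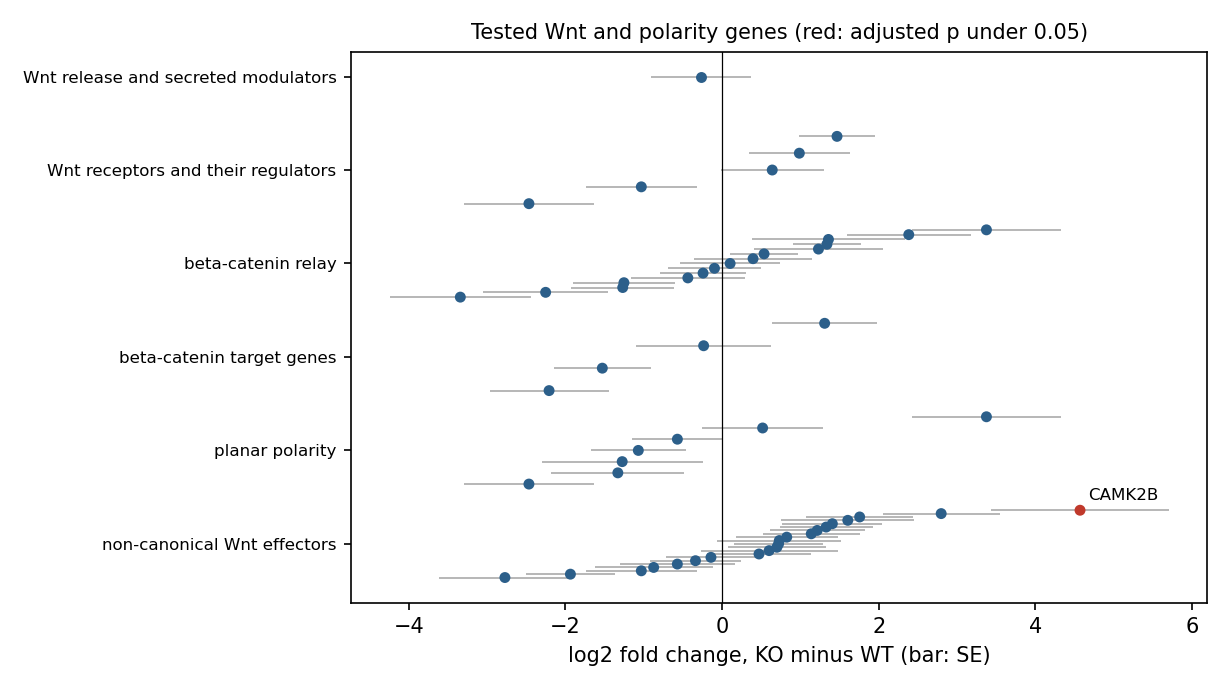
Log2 fold change (KO minus WT) with its standard error for each tested gene of 6 Wnt and polarity lists, with genes in several lists drawn in each and the one gene past an adjusted p of 0.05 in red. Each list spans 0 except that of the secreted modulators, which has 1 tested gene, and CAMK2B is the one gene in red.

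The genes whose levels followed each of the 3 most closely over the 6 libraries were named by Pearson correlation of log2(CPM + 2) among the tested genes. For DKK2 they included FAM155A, SCAF8, FBXO33 and NR4A1, with r from 0.997 to 0.991. FAM155A, an auxiliary protein of the sodium leak channel, had 150 counts in KO and 1 in WT. NR4A1, an immediate early nuclear receptor, had 54 and 1. For KIF26B they included OTUB2, FAM110B, CERS2 and ERF, with r from 0.999 to 0.997. OTUB2, a deubiquitinase, had 51 counts in KO and 1 in WT. ERF, an ETS-family repressor, had 128 and 2. For PRICKLE2 they were GPBP1L1, RAB1B, PPM1L, ZNF407 and ANKIB1, with r from 0.993 to 0.985. RAB1B, a GTPase of transport between endoplasmic reticulum and Golgi, had 6 counts in KO and 35 in WT, and PPM1L, a protein phosphatase, had 2 and 29. Of the 2560 tested genes, an r of at least 0.95 was reached by 91 with DKK2 (3.56%), by 82 with KIF26B (3.2%) and by 28 with PRICKLE2 (1.09%). The points share the 2 genotypes and the KO libraries, which were far more alike than the WT libraries. Several of these r rest on single reads in WT. OTUB2 and FAM110B had 0, 1 and 0 counts in WT replicates 1, 2 and 3, and ERF had 0, 2 and 0. FAM155A and NR4A1 had 0, 0 and 1. CERS2, SCAF8 and FBXO33 had more, with 16, 69 and 18 counts over the WT libraries.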

How the data were processed

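RNA was measured in 6 libraries, 3 of KO and 3 of WT islets, grouped by sample title. The authors deposited whole-number counts per gene, not normalized per the file headers. A further 6 per-sample columns, normalized by edgeR per the file headers, were not used. Tools named in the submitters' processing notes, without role or order, are edgeR 3.16.5, HTSeq 0.9.1, cutadapt 1.9.3 and HISAT2 2.0.4, beside build mm10. All 13702 identifiers begin with ENSG, none (0) is in the mouse name table used, and 11747 symbols match a mouse symbol if case is disregarded. A row without an identifier (1) was left out.

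The test was the quasi-likelihood F test of edgeR 4.0.16 (R 4.3.3) with genotype as the one term, after filterByExpr and with TMM factors from the genes kept. It is two-sided, and p-values were adjusted by Benjamini-Hochberg over all genes tested, with a threshold of 0.05. A log2 fold change is KO minus WT, and its standard error comes from the F statistic. Intervals are exact at 95%, a count of 0 was taken to allow 3 counts, and both cover counting error only. The procedure was tested on simulated data in which each gene had the same spread in both genotypes. The WT libraries here were far less alike than the KO libraries, and that test does not cover such unevenness. Alternatives were DESeq2 1.42.0, limma-voom from limma 3.58.1, other scaling, filters and pseudocounts (2 CPM as reported), each library left out and the replicate number as a block. The genes and lists were chosen with earlier results of these data known. Named genes were relatives of the 3 genes, a set of core pathway genes, those past the threshold or with the 4 smallest p in each list, the gene of highest mean CPM in it, and the 5 closest by correlation. Some genes that this rule names are not reported here.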

Additional observations from a re-analysis of the deposited data

How the results depend on the processing

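DKK2, KIF26B and PRICKLE2 kept their direction under the scalings, pseudocounts and left-out libraries tried. The other tests, the filters and the block were not applied to them. Over the fits without one library each, the log2(CPM + 2) difference was 5.26 to 6.19 for DKK2, 5.86 to 7.14 for KIF26B and −4.83 to −3.95 for PRICKLE2. With a pseudocount of 0.5 or 10 CPM it was 7.62 or 4.43 for KIF26B and −5.88 or −2.68 for PRICKLE2, because the pseudocount sets the level of a count of 0. The median log2 fold change of all tested genes moved with the scaling, from −0.14 with TMM to −0.26 with DESeq2 size factors and −0.00081 with library totals, which is small beside these differences.

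Counts of genes called moved much more. Over all genes, 129 were higher and 77 lower in KO. Higher and lower counts became 221 and 218 with no low-count filter, 223 and 162 for genes averaging at least 5 CPM, 211 and 236 with DESeq2 and 218 and 94 with limma-voom. They ran from 3 to 816 higher and from 0 to 711 lower without one library each, both highest without WT replicate 1. A fit with a replicate block gave 106 and 31. Same-numbered libraries did not deviate together (correlations of −0.0169 to 0.0194). The KO libraries differed by more than sampling noise, which alone gives 1, but far less than the WT libraries. The chi-square over degrees of freedom was 1.96 to 2.02 between KO libraries, against 16.5 to 35.1 between WT libraries. The KO libraries thus leave little variation to correlate, and this check cannot decide whether the numbers pair the samples. For the Wnt and polarity lists, 1 was higher and 0 lower. The counts were 1 and 1 with DESeq2 size factors, 2 and 0 with library totals, 4 and 2 with no filter as well as with the filter of 5 CPM, 4 and 6 with DESeq2, 4 and 1 with limma-voom, 2 and 1 with the replicate block, and from 0 to 23 higher and 0 to 5 lower without one library each. The remaining fits were chosen after seeing the data. With WT replicates 2 and 3 left out, 509 genes were higher and 257 lower, 8 and 6 of them in the lists, and with the KO libraries summed to 1 both counts were 0 over all genes (301 at an unadjusted p under 0.05) and 0 in the lists (5). In both, an arm holds a single library, which is assumed to vary as the other arm does. The cause of these shifts was not tested.

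The named genes that turned direction had not passed the threshold in the fit as reported, though CSNK1A1, CD44 and PPP3CB passed it in an alternative. With no filter the log2 fold change was 0.42 for WLS, 0.68 for CCND2, 0.58 for CSNK1A1 and 0.26 for FAT1, and with the filter of 5 CPM it was 0.44, 0.70, 0.59 and 0.29. With limma-voom it was 0.065 for WLS, 0.67 for CCND2 and 0.032 for CSNK1A1. With the replicate block it was 0.38 for CCND2 and 0.081 for CSNK1A1. With WT replicates 2 and 3 left out it was 1.17 for RYK, 0.51 for CD44, 6.85 for CCND2, 6.35 for SEC24B and −0.35 for PPP3CB. With the KO libraries summed it was 0.98 for WLS, 0.30 for RYK, 1.10 for CCND2, 0.21 for SMURF2, 0.013 for SEC24B, 1.21 for CSNK1A1 and 0.75 for FAT1. Without one library each, the values ran from −0.56 to 0.74 for WLS, from −0.55 to 1.16 for CCND2 and from −0.37 to 0.94 for CSNK1A1. Depth limits all of this: of 142 listed pathway genes 51 had under 10 counts over the 6 libraries.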

Other observations

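Several polarity and Wnt genes that did not pass the low-count filter had most or nearly all of their counts in a single WT library. They were singled out after their values had been seen. FAT2, a giant cadherin, had 0, 0 and 1 counts in KO replicates 1, 2 and 3 and 0, 312 and 2 counts in WT replicates 1, 2 and 3. CELSR2, a cadherin of the core planar polarity group, had no (0) counts in KO against 1, 22 and 2 in WT replicates 1, 2 and 3. WT replicate 2 holds 68.8% of all WT counts, so depth alone would place most WT counts of a gene there. In CPM, CELSR2 stood at 25.7, 88.0 and 12.6 in WT replicates 1, 2 and 3. PLCB1, a phospholipase of the calcium branch, had KO counts of 0, 1 and 0, against 1, 5 and 76 in WT replicates 1, 2 and 3. FAT2 and CELSR2 thus stood highest in WT replicate 2, where squamous markers took 16.4% of counts, and PLCB1 in WT replicate 3. The part of those cells was not tested.

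Other kinesins gave no call. Of 39 kinesin heavy chain genes besides KIF26B, 34 were listed and 4 tested. None (0) of them was called by edgeR, and 1 had an unadjusted p under 0.05. The median log2 fold change was −1.34. KIF13A, a motor of vesicle transport, had KO counts of 7, 8 and 7 and WT counts of 2, 47 and 21 (edgeR adjusted p 0.0818). KIF21A, KIF2A and KIF5B had adjusted p of 0.261, 0.313 and 0.953.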
